A study of Saccharomyces cerevisiae with 12 samples.

Results

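Trehalose and glycogen are the storage carbohydrates of budding yeast, and the 10 genes described here encode enzymes and a regulatory subunit that make and break them. The genes were chosen by name, with earlier results of these data known. They are TPS1 (YBR126C), TPS2 (YDR074W), TSL1 (YML100W), NTH1 (YDR001C), PGM2 (YMR105C), GSY1 (YFR015C), GSY2 (YLR258W), GLC3 (YEL011W), GPH1 (YPR160W) and GDB1 (YPR184W). Each has a row among the 6177 genes of the table. RNA from SAN1 cells and RNA from san1 mutants of Saccharomyces cerevisiae met on each of 12 2-channel arrays, 6 for cells grown in YEPD, a rich medium, and 6 for cells grown in the medium the labels call YC. SAN1 encodes a nuclear ubiquitin ligase that marks misfolded proteins for the proteasome. The labels give neither the san1 allele nor the strain background, the growth phase or the number of cultures. For YC arrays 1 to 3 the description names YEPD, while title and source name give YC, which was followed.

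Trehalose is made from UDP-glucose and glucose-6-phosphate, and glycogen from UDP-glucose on a protein primer. Both stores are known to build up when yeast growth slows or cells meet stress, and to be broken down when growth resumes. Many of the genes are known targets of the stress factors Msn2 and Msn4 and are held down by protein kinase A, the cAMP-dependent kinase that signals glucose supply.

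Every value below is a log2 ratio of san1 over SAN1 RNA on 1 array, centred on that array's median, or a change fitted to these ratios. A ratio carries no level of the transcript itself, so amounts of different genes cannot be compared. The base of the deposited logarithm is not stated and was taken as 2. Which channel is the numerator is not stated either, and was read from the SAN1 row. That row was deposited at -4.57 to -3.67 on the 6 arrays whose channel 2 held the mutant's RNA and at 2.69 to 3.89 on the other 6, and SAN1 RNA was taken to be the lower one in the mutant. The descriptions word the comparison the other way round, as SAN1 over san1 with Cy5 over Cy3. Were the numerator channel 1, every sign below would turn while the sizes and tests would stay the same. The ratio of SAN1 so turned lay between -3.94 and -3.39 on the YEPD arrays and between -4.57 and -2.69 on the YC arrays. Nothing in the labels says that arrays came from separate cultures, so a p-value reflects only how far these arrays scatter, which may be technical.

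In YC, 5 of the 9 members that could be tested rose in san1 cells and 0 fell, while in YEPD 0 passed. The 5 were GPH1 and PGM2, both 1.34-fold higher, NTH1 and TPS2, both 1.21-fold higher, and TPS1, 1.17-fold higher. Testing a gene took 2 or more values per medium and dye orientation, and GDB1, with 3 YEPD values, missed this. It was called where the adjusted p of limma's fit over 5890 genes was under 0.05. Because the members were chosen with earlier results known, the shares of all genes beside them are a description and no independent test. Of all genes tested, 24.8% were called in YC, 13.0% higher and 11.8% lower. In YEPD 2.05% were called, 1.73% higher and 0.323% lower. An unadjusted p under 0.05 was reached by 7 of 9 members in YC and 0 in YEPD, against 38.1% and 9.85% of all genes. All 9 fitted changes were above 0 in both media, as were 49.3% of all genes in YC and 51.7% in YEPD. For 0 of 9 members did every YC array exceed every YEPD array, against 2.12% of all genes. The median fitted change of the 9 members was 0.27 in YC and 0.09 in YEPD, against -0.0016 and 0.0022 over all genes tested. The YC change was carried by 4 of the 6 arrays. Arrays 2, 3, 5 and 6 had 10 of 10 members above 0, whereas 3 members were above 0 on array 1 and 2 on array 4.

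**Figure D1:**
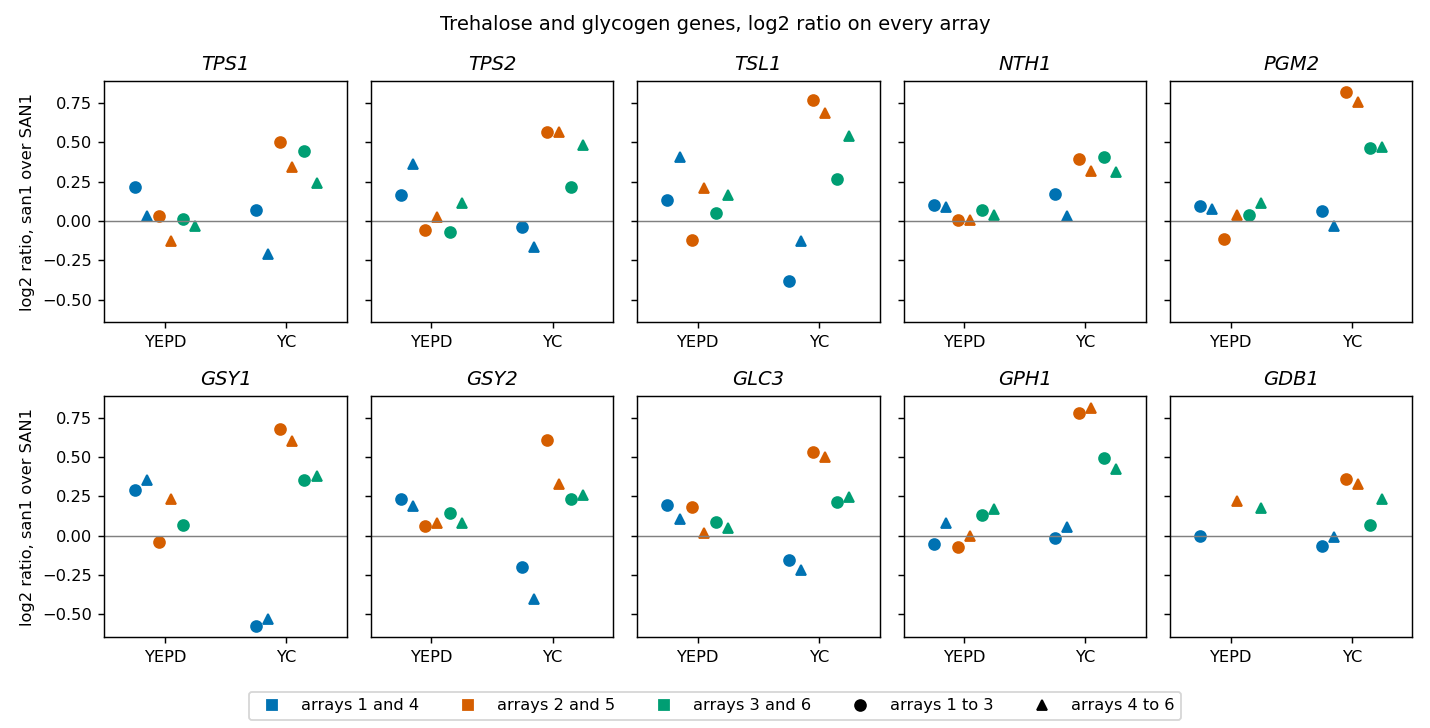
Each panel shows 1 gene, with the log2 ratio of san1 over SAN1 on the y axis and the YEPD and YC arrays along the x axis. A point is 1 array, its colour joins arrays n and n plus 3 of a medium, and circles are arrays 1 to 3 and triangles arrays 4 to 6, which carried the dyes the other way round. In YC the points of arrays 2 and 5 reach 0.82, and those of arrays 1 and 4 lie lowest for each of the 10 genes when averaged.

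The trehalose synthase complex is formed by Tps1, which makes trehalose-6-phosphate, Tps2, which removes the phosphate, and the regulatory subunits Tsl1 and Tps3. On YC arrays 1 to 6 the TPS1 ratio was 0.07, 0.50, 0.44, -0.21, 0.34 and 0.24. It was thus below 0 on array 4 only, and 4 of the arrays lay above the highest YEPD value of 0.22. The fitted change in YC was 0.23 (SE 0.069, n = 6 arrays, adjusted p = 0.028). On YEPD arrays 1 to 6 TPS1 stood at 0.22, 0.03, 0.01, 0.03, -0.13 and -0.03, with a fitted change of 0.02 (SE 0.069, adjusted p = 0.97). The YEPD values were scattered around 0. The call in YC was lost without YC array 2 (adjusted p = 0.09), 3 (0.092), 5 (0.093) or 6 (0.089).

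TPS2 lay at -0.04, 0.57, 0.22, -0.16, 0.56 and 0.48 on YC arrays 1 to 6. Arrays 2, 5 and 6 were above every YEPD value, and arrays 1 and 4 were below 0. Its change in YC was 0.27 (SE 0.092, n = 6 arrays, adjusted p = 0.047), close to the threshold. Leaving out any array other than YC array 1, YC array 4 or YEPD array 4 ended this call, with adjusted p between 0.055 and 0.15. In YEPD it was 0.16, -0.06, -0.07, 0.36, 0.02 and 0.11, and the fit gave 0.09 (SE 0.092, adjusted p = 0.87).

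TSL1 had the widest spread of the trehalose genes. Its ratio was -0.38, 0.77, 0.27, -0.13, 0.69 and 0.54 on YC arrays 1 to 6, so that 4 arrays lay well above 0 and 2 below. The fitted change of 0.29 was not called (SE 0.12, adjusted p = 0.098). In YEPD it stood at 0.13, -0.12, 0.05, 0.41, 0.21 and 0.17, fitted at 0.14 (SE 0.12, adjusted p = 0.82). TPS3, which encodes the other regulatory subunit and is a paralog of TSL1, was at 0.02 in YC (SE 0.053, adjusted p = 0.78).

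NTH1 encodes neutral trehalase, which splits trehalose into glucose. It was the steadiest of the members, above 0 on 12 of 12 arrays. The values were 0.17, 0.39, 0.41, 0.03, 0.32 and 0.31 on YC arrays 1 to 6 and 0.10, 0.01, 0.07, 0.09, 0.00 and 0.04 on YEPD arrays 1 to 6. All YC arrays except array 4 lay above the highest YEPD value. NTH1 rose by 0.27 in YC (SE 0.043, n = 6 arrays, adjusted p = 0.0011). The YEPD fit gave 0.05 (SE 0.043, adjusted p = 0.81). It was the 1 member of 9 whose difference between the media passed, at 0.22 (SE 0.06, adjusted p = 0.039), where 9.78% of all genes were called, 5.5% higher and 4.28% lower. An unadjusted p under 0.05 for this difference was found for 3 of 9 members and 28.9% of all genes, and 8 of 9 differences were above 0, against 47.4%. This call was lost without any single array other than YC array 1 or 4, with adjusted p between 0.057 and 0.085. NTH2, encoding the second neutral trehalase, was at 0.06 in YC (SE 0.04, adjusted p = 0.33), and ATH1, encoding acid trehalase, at 0.11 (SE 0.064, adjusted p = 0.23).

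PGM2 encodes the major phosphoglucomutase, which interconverts glucose-6-phosphate and glucose-1-phosphate ahead of UDP-glucose. On YC arrays 1 to 6 it stood at 0.06, 0.82, 0.47, -0.03, 0.76 and 0.47. Arrays 2, 3, 5 and 6 lay above every YEPD value, and arrays 1 and 4 fell within the YEPD range. PGM2 rose by 0.42 in YC (SE 0.094, n = 6 arrays, adjusted p = 0.007). In YEPD the values were 0.10, -0.12, 0.04, 0.08, 0.04 and 0.11, and the fit gave 0.04 (SE 0.094, adjusted p = 0.95). The difference between the media was 0.38 (SE 0.13) and did not pass (adjusted p = 0.081). Its paralog PGM1 was at -0.04 in YC (SE 0.034, adjusted p = 0.4), and PGM2 lay above PGM1 on 6 of 6 YC arrays, by a mean of 0.47 (SD 0.29), which was not tested.

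Glycogen is built by the synthases Gsy1 and Gsy2, of which Gsy2 is the main form, and by the branching enzyme Glc3. All 3 genes were above 0 on YC arrays 2, 3, 5 and 6 and below 0 on YC arrays 1 and 4, and 0 of them was called in limma's fit. GSY1 stood at -0.575, 0.68, 0.35, -0.53, 0.60 and 0.38 on YC arrays 1 to 6. No other member had so wide a spread in YC, with an SD of 0.56. The fitted change was 0.15, with a 95% interval from -0.19 to 0.49 (adjusted p = 0.51). In YEPD it was 0.29, -0.04, 0.07, 0.36 and 0.24 on arrays 1 to 5 and empty on array 6, fitted at 0.19 (SE 0.17, adjusted p = 0.83).

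GSY2 lay at -0.20, 0.61, 0.23, -0.40, 0.33 and 0.26 on YC arrays 1 to 6. The fitted change in YC was 0.14 (SE 0.097, 95% interval -0.07 to 0.35, adjusted p = 0.32). In YEPD all 6 values were above 0, at 0.23, 0.07, 0.15, 0.19, 0.08 and 0.08, with a fitted change of 0.13 (SE 0.097, adjusted p = 0.76). GLC3 resembled it, with -0.15, 0.53, 0.21, -0.21, 0.50 and 0.24 on YC arrays 1 to 6 and 0.20, 0.18, 0.09, 0.10, 0.01 and 0.05 on YEPD arrays 1 to 6. GLC3 was fitted at 0.19 in YC (SE 0.085, adjusted p = 0.12) and 0.11 in YEPD (SE 0.085, adjusted p = 0.79). GSY1 and GSY2 are close paralogs, and whether the spots tell their RNAs apart is not given in the sources used here. GSY1 was above GSY2 on 4 of 6 YC arrays, with a mean difference of 0.01 (SD 0.23).

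Glycogen is broken down by the phosphorylase Gph1 and the debranching enzyme Gdb1. GPH1 had the highest fitted change of the members in YC, 0.43 (SE 0.095, n = 6 arrays, adjusted p = 0.0071), with 0.42 for PGM2 next to it. Its values were -0.02, 0.78, 0.49, 0.06, 0.81 and 0.43 on YC arrays 1 to 6 and -0.05, -0.07, 0.13, 0.08, 0.00 and 0.17 on YEPD arrays 1 to 6. Arrays 2, 3, 5 and 6 of YC were clear of the YEPD range, and arrays 1 and 4 were inside it. In YEPD GPH1 was fitted at 0.04 (SE 0.095, adjusted p = 0.95), and the difference between the media was 0.38 (SE 0.13, adjusted p = 0.082).

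GDB1 had values on 3 YEPD arrays, 0.00 on array 1, 0.22 on array 5 and 0.18 on array 6, and could not enter the fit over both media. On YC arrays 1 to 6 it stood at -0.07, 0.36, 0.07, -0.01, 0.33 and 0.23. In a fit of the YC arrays alone its change was 0.15 (SE 0.065, 95% interval 0.0032 to 0.30, adjusted p = 0.14 over 6101 genes). In order of their fitted YC change the members ran from GPH1 and PGM2 through TSL1, NTH1, TPS2, TPS1 and GLC3 to GDB1, GSY1 and GSY2. The intervals of neighbours in this order overlap, and differences between members were not tested.

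**Figure D2:**
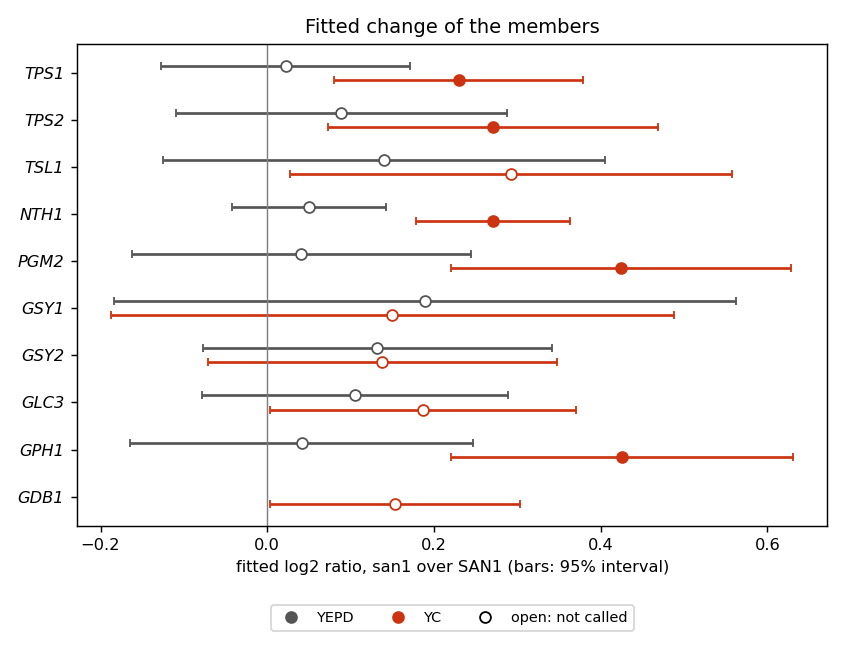
The x axis gives the fitted log2 ratio of san1 over SAN1 with its 95% interval for each member, grey for YEPD and red for YC, and filled points passed an adjusted p of 0.05. The fit used all 12 arrays, except for GDB1, whose value comes from the 6 YC arrays alone. TPS1, TPS2, NTH1, PGM2 and GPH1 are filled in YC, and no member is filled in YEPD.

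The spread of the members over the arrays differed between the media. Their SD was larger on the YC than on the YEPD arrays for 9 of 9 members, by 1.97 times for TPS2 to 5.44 times for GSY2, with a median of 3.51 times. Over all genes tested the median was 0.977 times, and 48.3% had the larger SD in YC. A ratio over 2 was found for 8 of the 9 members and for 12.4% of all genes. The fit over 12 arrays gives both media 1 shared error. In a fit of the YEPD arrays alone, 0 of 9 members were called in limma, against 2.57% of all genes, and 4 (GLC3, GSY1, GSY2 and TSL1) had an unadjusted p under 0.05, as had 16.6% of all genes. In a fit of the YC arrays alone, 3 of 10 members were called (NTH1, GPH1 and PGM2) and 6 had an unadjusted p under 0.05, against 15.5% and 33.5% of all genes. The fitted YEPD changes of those 4 in the YEPD-only fit were 0.11, 0.20, 0.13 and 0.14, with adjusted p of 0.100, 0.126, 0.0749 and 0.174. In the fit over all 12 arrays 0 of 9 had an unadjusted p under 0.05 in YEPD, and the fitted changes ran from 0.02 for TPS1 to 0.19 for GSY1.

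In YC the members differed more between array pairs than within them. Averaging arrays n and n plus 3, which carry the dyes in opposite orientation, gave for TPS1 -0.07 on arrays 1 and 4, 0.42 on arrays 2 and 5 and 0.34 on arrays 3 and 6. For GPH1 the same means were 0.02, 0.80 and 0.46. For GSY1 they were -0.55, 0.64 and 0.36. The mean of arrays 1 and 4 was the lowest of the pair means for 10 of 10 members, as for 37.7% of all genes with 6 YC values. The order from arrays 2 and 5 through 3 and 6 to 1 and 4 held for 9 of 10, NTH1 being at 0.36 on both of the higher pairs, against 25.4% of all genes. For 10 of 10 members the range of the pair means exceeded the largest difference between the arrays of a pair, as for 32.8% of all genes. Over 4652 genes the deviations from the mean of the 3 arrays of that medium and dye orientation correlated at 0.37 for YC arrays 1 and 4 and 0.558 for 2 and 5, but at -0.231 for 3 and 6, so not all 3 pairs held together across the table. These shares describe the arrays and were not tested, since the labels do not say what arrays n and n plus 3 have in common.

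The members also differed from each other on single arrays. Their SD was 0.16, 0.14, 0.19 and 0.12 on YC arrays 2, 3, 5 and 6. On YC arrays 1 and 4 it was 0.22 and 0.19. GSY1 (-0.55), GSY2 (-0.30), TSL1 (-0.25) and GLC3 (-0.18) had the lowest means there, and NTH1 (0.10), GPH1 (0.02) and PGM2 (0.02) the highest. TPS2 (-0.10), TPS1 (-0.07) and GDB1 (-0.04) lay between them. On arrays 2 and 5 the lowest mean was that of GDB1, at 0.35, and the highest that of GPH1. The synthase, branching and Tsl1 genes were thus lower in san1 than in SAN1 RNA on arrays 1 and 4 and higher on the other 4 YC arrays, as single values with no test. The same switch of sign was seen at smaller size for TPS2 (-0.04 and -0.16 on arrays 1 and 4) and GDB1 (-0.07 and -0.01). In YEPD arrays 1 and 4 did not stand low, with GSY2 at 0.21, TSL1 at 0.27 and GSY1 at 0.32 as their means.

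**Figure D3:**
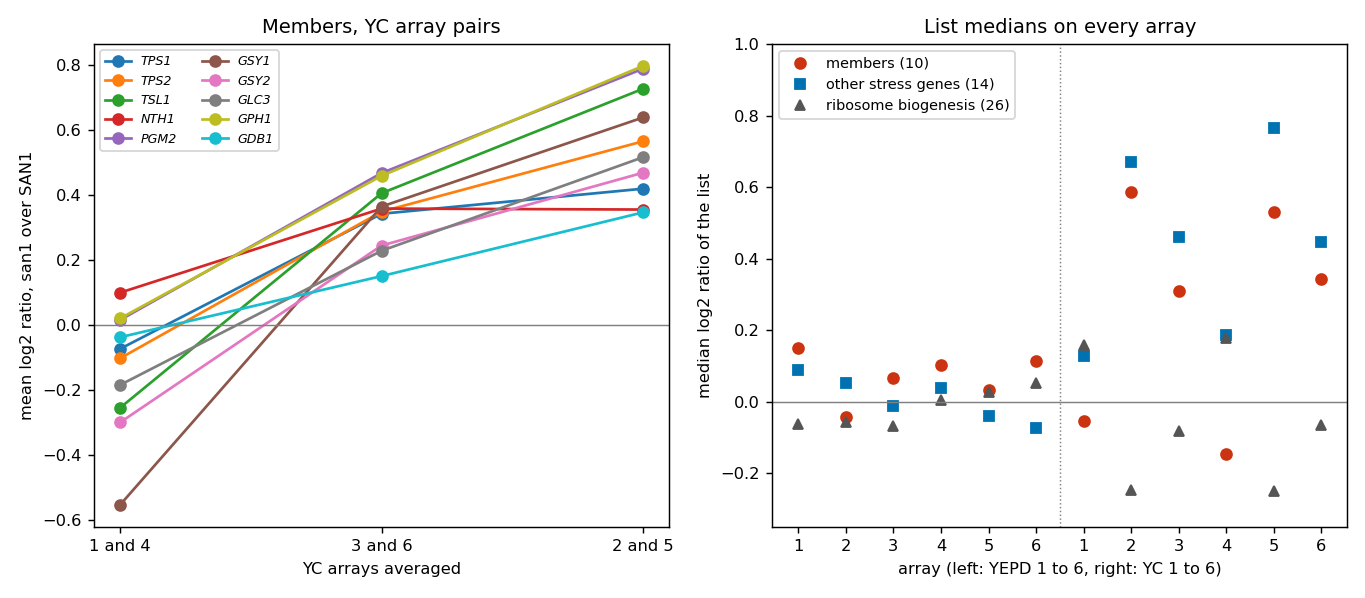
The left panel gives, on the y axis, each member's mean log2 ratio of san1 over SAN1 on YC arrays 1 and 4, 3 and 6, and 2 and 5, with lines joining the points of a gene. The right panel gives the median ratio of the 10 members, of 14 other stress genes and of 26 ribosome biogenesis genes on each YEPD and YC array. On YC arrays 2 and 5 the members' median is 0.59 and 0.53 and that of the ribosome biogenesis genes -0.25 on both.

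Over the YC arrays the medians of other stress genes moved broadly with those of the members, and the medians of ribosome biogenesis genes moved the opposite way. The median of the 10 members was -0.05, 0.59, 0.31, -0.15, 0.53 and 0.34 on YC arrays 1 to 6. A list of 14 stress genes that are not members, chosen with earlier results known, among them HSP12, CTT1 and HSP26, had medians of 0.13, 0.67, 0.46, 0.19, 0.76 and 0.45 on the same arrays. Of up to 26 ribosome biogenesis genes per array the medians were 0.16, -0.25, -0.08, 0.18, -0.25 and -0.06. The arrays highest for the members were thus highest for the stress genes and lowest for the ribosome genes. On arrays 1 and 4 the median of the stress list stayed above 0, with single genes below 0, while the members' median was below 0. In YEPD the medians lay between -0.04 and 0.15 for the members, between -0.07 and 0.09 for the stress list and between -0.07 and 0.05 for the ribosome list. The part of growth state or stress level in the members' YC values was not tested.

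The correlations between members were higher over the YC than over the YEPD arrays. Over 12 arrays the 28 correlations between the 8 members with 12 values ran from 0.618, for NTH1 and GSY2, to 0.973, for GPH1 and PGM2, with a median of 0.822. Over the 6 YC arrays the 45 correlations of the 10 members had a median of 0.941, and over the 6 YEPD arrays those of the 8 complete members had a median of 0.433 and ran from -0.619 to 0.954. These are descriptions, since all values of an array share its hybridization and centring. For the 9 tested members the SD was larger on the YC arrays, by a median of 3.51 times. Its part in these correlations was not tested. Among 4644 other genes with 12 values, those nearest to the mean of the 8 members were HXT6 (r = 0.976), a high-affinity hexose transporter gene with close copies, RME1 (0.963), a repressor of meiosis, GLK1 (0.958), the glucokinase gene, SSE2 (0.952), an Hsp70 exchange factor gene, and EMI2 (0.941). HXT6 was at 0.33 in YC (SE 0.088, adjusted p = 0.016) and SSE2 at 0.30 (SE 0.072, adjusted p = 0.011). RME1 tracked the members at smaller size, at 0.04 in YC (SE 0.039, adjusted p = 0.54).

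The calls in YC leaned on the array pairs to different degrees. With arrays n and n plus 3 averaged to 1 value, 2 members remained called, NTH1 (adjusted p = 0.0225 in limma) and PGM2 (0.0489). GPH1 stood at an adjusted p of 0.0502, TPS1 at 0.107 and TPS2 at 0.133. Averaging so left 14.0% of all genes called. Leaving out arrays 2 and 5, or arrays 3 and 6, left NTH1 as the 1 member called, with 19.5% and 9.29% of all genes called. Leaving out arrays 1 and 4 instead brought all 9 tested members past the threshold, and 7 in the difference between the media, against 24.0% and 12.6% of all genes called. These 3 omissions were chosen after the values were seen. The mean of arrays 1 and 4 was the lowest for 10 of 10 members, so leaving them out was bound to raise each YC change. The counts without arrays 1 and 4 are therefore no evidence that the members rose. NTH1 was called in YC under each alternative run.

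The wider pathway is described by 31 further genes, for other enzymes, the glycogen phosphatase and its subunits, the Pho85 kinase with its cyclins, and the signalling factors above. In YC 6 of the 31 rose, 1 fell and 24 did not pass, and the median change was 0.05. The share called, 7 of 31, was near that of all genes tested in YC, 24.8% (13.0% higher and 11.8% lower). In YEPD 0 of 31 passed in limma and 2 had an unadjusted p under 0.05, against 2.05% and 9.85% of all genes. This list too was chosen with earlier results known.

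Among 12 other enzymes, 3 rose, 1 fell and 8 did not pass in YC, where 24.8% of all genes were called. UGP1 encodes UDP-glucose pyrophosphorylase, whose product feeds both stores. It stood at 0.20, 0.33, 0.19, 0.14, 0.43 and 0.23 on YC arrays 1 to 6, above 0 throughout, and rose by 0.25 (SE 0.04, n = 6 arrays, adjusted p = 0.0012). Its means on arrays 1 and 4, 2 and 5, and 3 and 6 were 0.17, 0.38 and 0.21. GLG1, a glycogenin gene whose product primes glycogen, rose by 0.23 (SE 0.067, adjusted p = 0.027), a call lost without YC array 2, 3, 5 or 6 (adjusted p from 0.062 to 0.091). Its YC values were 0.07, 0.48, 0.25, -0.11, 0.44 and 0.23, and its paralog GLG2 was at -0.02 (adjusted p = 0.71).

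The hexokinase genes, whose products make glucose-6-phosphate, went opposite ways in YC. HXK1 rose by 0.38 (SE 0.089, adjusted p = 0.0086) and HXK2, the main form on glucose, fell by 0.16 on the log2 scale (SE 0.036, adjusted p = 0.0066). HXK1 stood at 0.02, 0.58, 0.41, -0.01, 0.70 and 0.60 on YC arrays 1 to 6, low on arrays 1 and 4 as the members were. HXK2 stood at -0.24, -0.26, -0.215, -0.21, -0.10 and 0.05, without that grouping. The difference between HXK1 and HXK2 was above 0 on 6 of 6 YC arrays, with a mean of 0.55 (SD 0.27), and on 2 of 6 in YEPD. HXK1 stood at -0.11, -0.20, -0.17, 0.31, 0.09 and 0.32 on YEPD arrays 1 to 6, so its sign there followed the dye orientation. Neither change differed between the media in limma (adjusted p = 0.095 for HXK1 and 0.053 for HXK2). The HXK1 call in YC was lost without YC arrays 2 and 5 (adjusted p = 0.086) or 3 and 6 (0.103). The HXK2 call was kept (0.0425 and 0.0175). GLK1 did not pass, at 0.19 in YC (SE 0.105, adjusted p = 0.22).

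Of 6 genes of the glycogen phosphatase, which activates glycogen synthase by removing phosphate, 3 rose in YC, where 13.0% of all genes were called higher, and 3 did not pass. GLC7 encodes the catalytic subunit, which also serves many other processes. It stood at 0.43, 0.14, 0.19, 0.25, 0.11 and 0.12 on YC arrays 1 to 6 and at 0.01, 0.13, 0.00, -0.03, -0.05 and -0.0014 on YEPD arrays 1 to 6. It was thus highest on the arrays where the members were lowest. GLC7 rose by 0.21 in YC (SE 0.037, adjusted p = 0.0025), and the difference between the media was 0.20 (SE 0.053, adjusted p = 0.035). This difference was lost without any single array other than YEPD array 2 or YC array 1, 2 or 5, with adjusted p between 0.0525 and 0.0851. GLC8, a regulatory subunit gene, had a YC change of 0.24 (SE 0.033, adjusted p = 0.0005). Its YEPD change of -0.09 did not pass (SE 0.033, adjusted p = 0.35). It was above 0 on 6 of 6 YC arrays and on 1 of 6 YEPD arrays, and the difference of 0.32 passed (SE 0.046, adjusted p = 0.0034). With array pairs averaged the difference of GLC8 had an adjusted p of 0.083. GIP2, a putative targeting subunit gene, had 5 values in each medium, being empty on YC array 1 and YEPD array 5. It rose by 0.23 in YC (SE 0.073, adjusted p = 0.039). Of YC arrays 1 and 4, on which the members were lowest, it thus had a value on array 4 only, -0.15. The adjusted p was between 0.08 and 0.14 without YC array 2, 3, 5 or 6, and 0.054 and 0.053 without YEPD array 1 or 6.

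**Figure D4:**
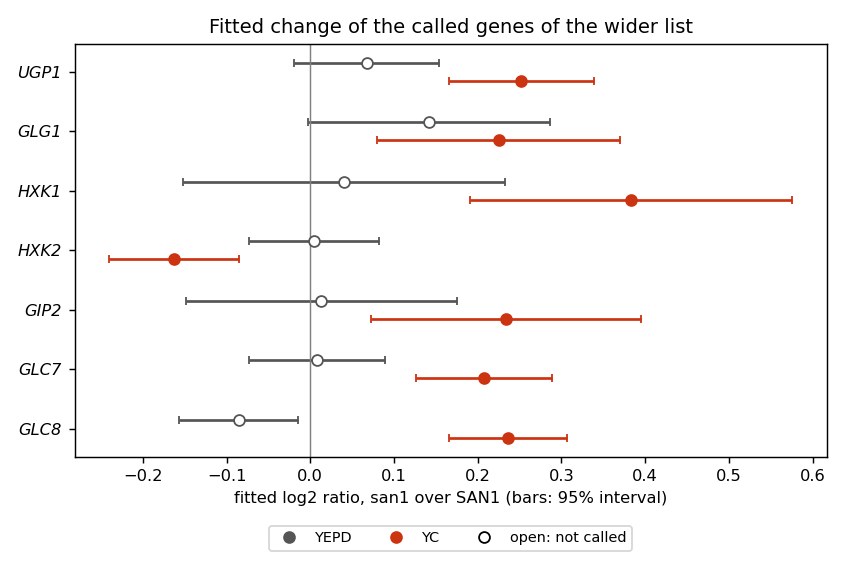
The x axis gives the fitted log2 ratio of san1 over SAN1 with its 95% interval for the 7 genes of the wider list that passed in a medium or in the difference, grey for YEPD and red for YC, with filled points for an adjusted p under 0.05. HXK2 lies below 0 in YC at -0.16, and the YC values of the other 6 lie above 0.

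None of the 5 genes for the Pho85 kinase and its cyclins, PHO85, PCL6, PCL7, PCL8 and PCL10, passed in limma in either medium. Their YC changes ran from -0.06 to 0.08, and 0 of 5 had an unadjusted p under 0.05. Of the 8 signalling genes reported here 0 passed in limma in either medium, and 1 had an unadjusted p under 0.05 in YC. Among all genes tested, 24.8% were called in YC and 2.05% in YEPD. In YC 38.1% of all genes had an unadjusted p under 0.05. MSN2 was at -0.07 (SE 0.049, adjusted p = 0.33) and MSN4 at 0.14 (SE 0.071, adjusted p = 0.17) in YC.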

How the data were processed

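The authors deposited 1 log ratio per array and spot, handled here as log2, per the file's values already centred, with column medians between -0.0029 and 0.0033. No label or header read here names the scanner, background correction, normalization or log base. An array held 5836 to 6180 values, and ratio files carry no spot brightness, so precision is limited by the number of arrays. Of 6204 rows, 5704 matched a locus tag and 42 a synonym of the RefSeq table for assembly R64, used for names only, and 458 kept the file's name. Rows of the same gene were averaged. Arrays were centred on their median and turned to san1 over SAN1. A mean per medium and 1 dye term were fitted per gene with limma 3.58.1 in R 4.3.3 on all 12 arrays, two-sided, with Benjamini-Hochberg adjustment over 5890 genes (287 were left out for empty cells). The fit was tested on simulated data. Named were SAN1, the members, the called genes of the wider list, further genes of that list after their values were seen (TPS3, NTH2, ATH1, PGM1, GLG2, GLK1, MSN2, MSN4 and the Pho85 genes), and the 5 genes most like the members' mean. Beside the 31 genes counted, 1 further gene of that list is not reported here. The members and lists were chosen with earlier results of these data known. YEPD and YC arrays share only a number, and no block entered the fit. Alternatives covered centring, scaling, the dye term, blocks, averaging, filters, variance moderation and each array left out.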

Additional observations from a re-analysis of the deposited data

Results flagged for a closer look

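The ratio of PGM2 on YEPD array 2 (-0.117) lay far below the other 5 YEPD arrays, and that of GLC7 on the same array (0.126) far above them. Of 35 sets of 4 to 6 arrays examined, 2 held such an array, and chance gives about 1 in 20.

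The change of 3 genes differed between the media in limma's test of the difference, by 0.221 for NTH1 (SE 0.06, adjusted p = 0.039), 0.199 for GLC7 (SE 0.053, adjusted p = 0.035) and 0.322 for GLC8 (SE 0.046, adjusted p = 0.0034), each higher in YC than in YEPD. NTH1 was above 0 on 6 of 6 arrays in each medium, GLC7 on 6 of 6 in YC and 3 of 6 in YEPD, and GLC8 on 6 of 6 in YC and 1 of 6 in YEPD. A difference was thus called for 1 of 9 members and 2 of the 31 further genes, against 9.78% of all genes tested. With arrays n and n plus 3 averaged none of them was called in limma. Their adjusted p was then 0.148 for NTH1, 0.134 for GLC7 and 0.0826 for GLC8.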

How the results depend on the processing

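In YEPD 0 members were called under every alternative run. In YC 5 were called, and 4 or 5 without centring, with a common spread, without the dye term, with 1 dye term per medium, with array pairs as a random block, on complete genes, with robust moderation or with YEPD arrays 4 and 6 averaged. The random block gave every gene the same correlation within a pair, 0.116, whatever the gene's own spread between pairs. It thus cannot show that the members' calls hold given their own differences between YC pairs. The count was 3 with the array number as a replicate block, 2 with arrays n and n plus 3 averaged, 3 with the medium fitted alone, and 3 to 7 with single arrays left out. For the difference between the media 1 member was called, and 0 with scaling, no dye term, the replicate block, averaged pairs, the random block or YEPD arrays 4 and 6 averaged, and 0 to 4 with single arrays left out. With YEPD arrays 4 and 6 averaged, limma's adjusted p for the difference was 0.073 for NTH1 and 0.0732 for GLC7. Over the tested genes without SAN1, correlations between arrays reached 0.855 with the mutant's RNA in channel 1 and 0.509 with it in channel 2. Nothing in the labels says whether the most alike arrays share RNA. Without YC arrays 1 and 4 the counts were 9 in YC and 7 for the difference, and without arrays 2 and 5, or 3 and 6, they were 1 and 0. The pairs were left out after the values were seen, and omitting arrays 1 and 4 was bound to raise the members' YC changes. Over all genes the block gave 902 YC and 49 difference calls and averaged pairs 816 and 3, against 1460 and 576. YC alone gave 944 YC calls, and averaged pairs 65 YEPD calls against 121. The difference calls numbered 359 with the random block, 244 without the dye term, 201 with YEPD arrays 4 and 6 averaged and 169 to 800 with single arrays left out. Leaving out YC arrays 3 and 6 gave 547 YC and 62 difference calls. Deviations of same-numbered YEPD and YC arrays correlated at -0.341 to 0.224 over 4652 genes, so the numbers were not taken to pair them. Under the block GPH1, NTH1 and PGM2 were called in YC. The cause of these changes was not tested, beyond the fewer degrees of freedom that blocks and averaging leave.

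Signs turned in few fits, none of them called. Without YC arrays 2 and 5 the YC change was -0.094 for GSY1 and -0.0273 for GSY2, and the difference -0.0648 for TSL1, -0.159 for GSY2, -0.083 for GLC3 and -0.0329 for GLG1. Without arrays 3 and 6 the difference of GSY2 was -0.0471, and without arrays 1 and 4 that of GSY1 was 0.3112. GIP2 in YEPD was -0.0089 with YEPD arrays 4 and 6 averaged. With single arrays left out the YEPD change ran from -0.0022 to 0.0432 for TPS1, -0.0204 to 0.0516 for GIP2, -0.0086 to 0.0188 for GLC7 and -0.0197 to 0.0294 for HXK2, and the difference from -0.1816 to 0.1316 for GSY1 and -0.0879 to 0.1154 for GSY2. Without any spot brightness, signal over background cannot be given.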
